A study of Mus musculus with 14 samples.

Results

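The 36 cell cycle and DNA replication genes described here were chosen by name, for their known roles in the cycle, among the 17552 genes of the table. They comprise 14 S phase genes (Ccne1, Ccne2, E2f1, Cdc6, Mcm2 to Mcm7, Pcna, Rrm1, Rrm2 and Tyms), 20 mitotic genes (Mki67, Top2a, Cdk1, Ccna2, Ccnb1, Ccnb2, Birc5, Bub1, Bub1b, Aurka, Aurkb, Plk1, Cdc20, Ube2c, Tpx2, Kif11, Kif20a, Cenpe, Cenpf and Foxm1) and 2 genes of G1 entry and arrest, Ccnd1 and Cdkn1a. All 36 were found in the table and all 36 passed the minimum of 10 counts in the groups together. Liver polyA RNA came from male C57BL/6 mice (C57BL/6J in the study's methods) that lacked Apoe in both groups, so that no mouse of normal Apoe genotype enters the comparison. The control group ate a Western diet, and the erythrodiol group ate the same diet with 10 mg/kg of erythrodiol, a triterpene alcohol of the olive. The labels give an age of 8 weeks and 8 weeks on the diets, and the study's methods give a longer time on the diets. In those methods the age is close to that of the mice put on the diets, so that the livers came from older mice. Each of the 7 control and 7 erythrodiol libraries was made from RNA pooled from a few mice.

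A cell that starts to divide first makes cyclin D1, which with its kinase partners frees E2F factors from the pocket proteins, and E2F then drives the genes of DNA replication. The MCM helicase is loaded on origins with the help of Cdc6, Pcna holds the polymerases on the template, and Tyms, Rrm1 and Rrm2 supply deoxynucleotides. The genes of the later phases are held down in resting cells by the DREAM complex and are driven by the MMB complex and Foxm1 through a promoter element, the cell cycle genes homology region or CHR, often near CCAAT boxes bound by NF-Y. Most hepatocytes of an adult liver are at rest, and cycling cells in whole liver can also be resident macrophages, endothelial cells, lymphocytes or blood precursors.

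The promoters of the S phase and mitotic genes differed in their shares of E2F sites and CHR elements, while many of both classes held CCAAT boxes. Starts and sequences are those of RefSeq on GRCm38.p6, and 28 of the 36 genes had an entry that runs from 250 bases before the start of the gene to 50 after it. An E2F site was searched as TTTCCCGC, TTTCGCGC, TTTGCCGC or TTTGGCGC, a CHR as TTTGAA or TTCGAA, and a CCAAT box as CCAAT, on both strands. Matches of the different elements were counted separately where they overlapped. Of the 12 S phase genes with an entry, 5 held an E2F site (Cdc6, Mcm3, Mcm5, Mcm6 and Mcm7), and of the 15 mitotic genes 1 did (Cdk1). Over all 27025 genes with such an entry, the share with a match in at least 1 of their promoters was 2.60%. A CHR was found in 12 of the 15 mitotic genes (80%) and in 2 of the 12 S phase genes, beside 21.7% of all genes with an entry. A CCAAT box was found in 14 mitotic and 8 S phase genes, beside 41.1% of all genes with an entry. Both a CHR and a CCAAT box were present in the promoters of 12 mitotic and 2 S phase genes, and in those of 9.65% of all genes with an entry. A match is a description of the letters and does not show binding, and Ccne2, Mcm4, Ccna2, Aurkb, Tpx2, Kif20a, Foxm1 and Ccnd1 had no entry.

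**Figure D1:**
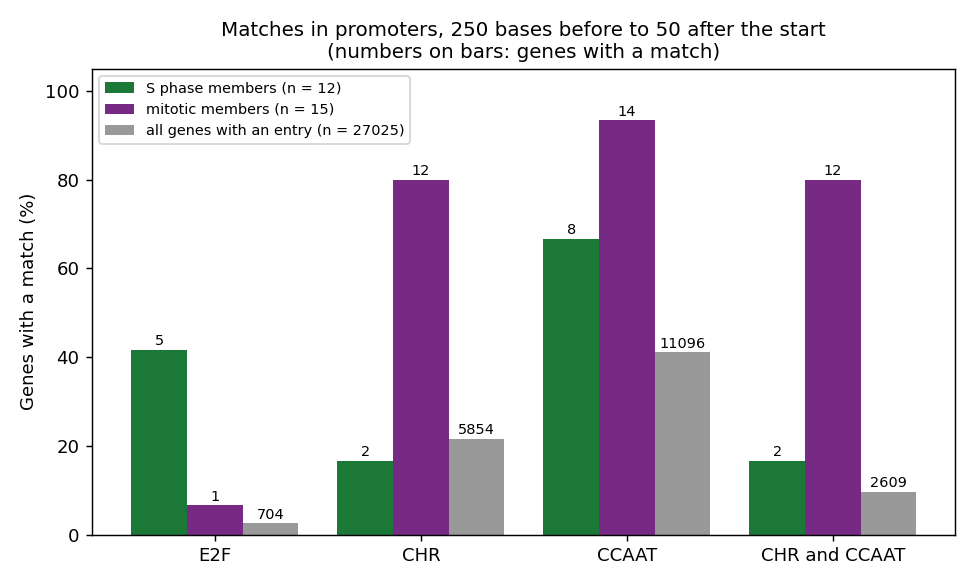
Share in percent of genes whose promoter holds each element, for S phase members (green, n = 12), mitotic members (purple, n = 15) and all genes with an entry (grey, n = 27025). The numbers above the bars are genes with a match, and the CHR bar of the mitotic members reaches 80% while that of all genes is at 21.7%.

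Stretches of 80 bases before the start of 5 mitotic genes and 2 S phase genes are given below as picked examples of these elements. The E2F site of Cdk1 lies outside its stretch. They are written 5' to 3' in the direction of the gene, and capitals mark the matches on either strand (CCAAT boxes, CHR elements and E2F sites). In Cdk1 and Cdc20 a CHR lies 15 and 18 bases before the start with a CCAAT box upstream of it. In Mcm5 and Mcm6, which encode subunits of the replicative helicase, a pair of E2F sites on opposite strands share bases.
Top2a, chr11:99024200-99024279, minus strand: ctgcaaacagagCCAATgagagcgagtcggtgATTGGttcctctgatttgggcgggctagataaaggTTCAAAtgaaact
Cdk1, chr10:69352913-69352992, minus strand: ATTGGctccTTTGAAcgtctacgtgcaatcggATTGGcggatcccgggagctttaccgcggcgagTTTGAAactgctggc
Cdc20, chr4:118437344-118437423, minus strand: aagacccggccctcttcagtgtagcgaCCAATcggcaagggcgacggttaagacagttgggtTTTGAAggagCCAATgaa
Ube2c, chr2:164769849-164769928, plus strand: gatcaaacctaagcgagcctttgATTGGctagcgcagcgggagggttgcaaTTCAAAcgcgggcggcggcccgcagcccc
Kif11, chr19:37376302-37376381, plus strand: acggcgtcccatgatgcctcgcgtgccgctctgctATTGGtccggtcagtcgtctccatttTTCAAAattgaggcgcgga
Mcm5, chr8:75109339-75109418, plus strand: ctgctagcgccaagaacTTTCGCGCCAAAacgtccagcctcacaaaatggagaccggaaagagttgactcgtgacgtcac
Mcm6, chr1:128359744-128359823, minus strand: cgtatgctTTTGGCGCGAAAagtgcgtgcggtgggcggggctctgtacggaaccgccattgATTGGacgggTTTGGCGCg

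Control libraries held between 34856340 and 55244294 clean reads, and erythrodiol libraries between 47669656 and 48058606. The deposited gene table holds a single expected count for each gene in each group, the sum over its 7 libraries, and these came to 122889032 in the control and 124686047 in the erythrodiol group. The table gives no value for a single library, so the spread between pools is unknown for every gene below and no test between the groups was made here. Ratios of erythrodiol to control were scaled by these totals, and the 95% intervals are exact intervals of the counts that cover counting error only. A gene was called higher or lower at a ratio of at least 1.5-fold in either direction. Group sums hide single pools. The fold that the largest library of a group would need to give the whole ratio alone is therefore stated beside the main values. Its other libraries are taken at the level of the other group. The largest library held 17.3% of the mapped pairs of the control and 14.6% of those of the erythrodiol group. Control replicate 3 had the lowest share of reads mapped to genes, 64.33%, and gave 9.12% of the mapped pairs of its group, and the values could not be recomputed without it. The 3 other scalings of the groups shifted all log2 ratios by -0.16 (TMM), -0.15 (median of ratios) and -0.10 (totals without the 50 most abundant genes).

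Transcripts of all 36 members were counted in both groups. Levels are given as CPM, the count scaled to a group total of 1000000. Per kilobase of transcript, the members' control levels in CPM ran from 0.0895 for Cenpf, a kinetochore protein, to 25.7 for Pcna, with a median of 1.03. The S phase members were at a median of 1.80 CPM per kilobase in the control and 1.91 with erythrodiol, and the mitotic members at 0.662 and 0.567. After Pcna, the highest control levels per kilobase were those of Ccnd1 at 10.7 CPM, Tyms at 9.21, Cdkn1a at 7.28 and Mcm7 at 6.12. Among all genes with at least 10 counts, the control level per kilobase put Pcna at percentile 86.6, Ccnd1 at 74.0 and Cenpf at 10.3. Hepatocyte markers (Alb, Ttr, Apoa1, Serpina1a, Tat, Cps1, Pck1 and Hnf4a) summed to 100608 CPM in the control and 100743 CPM with erythrodiol.

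**Figure D2:**
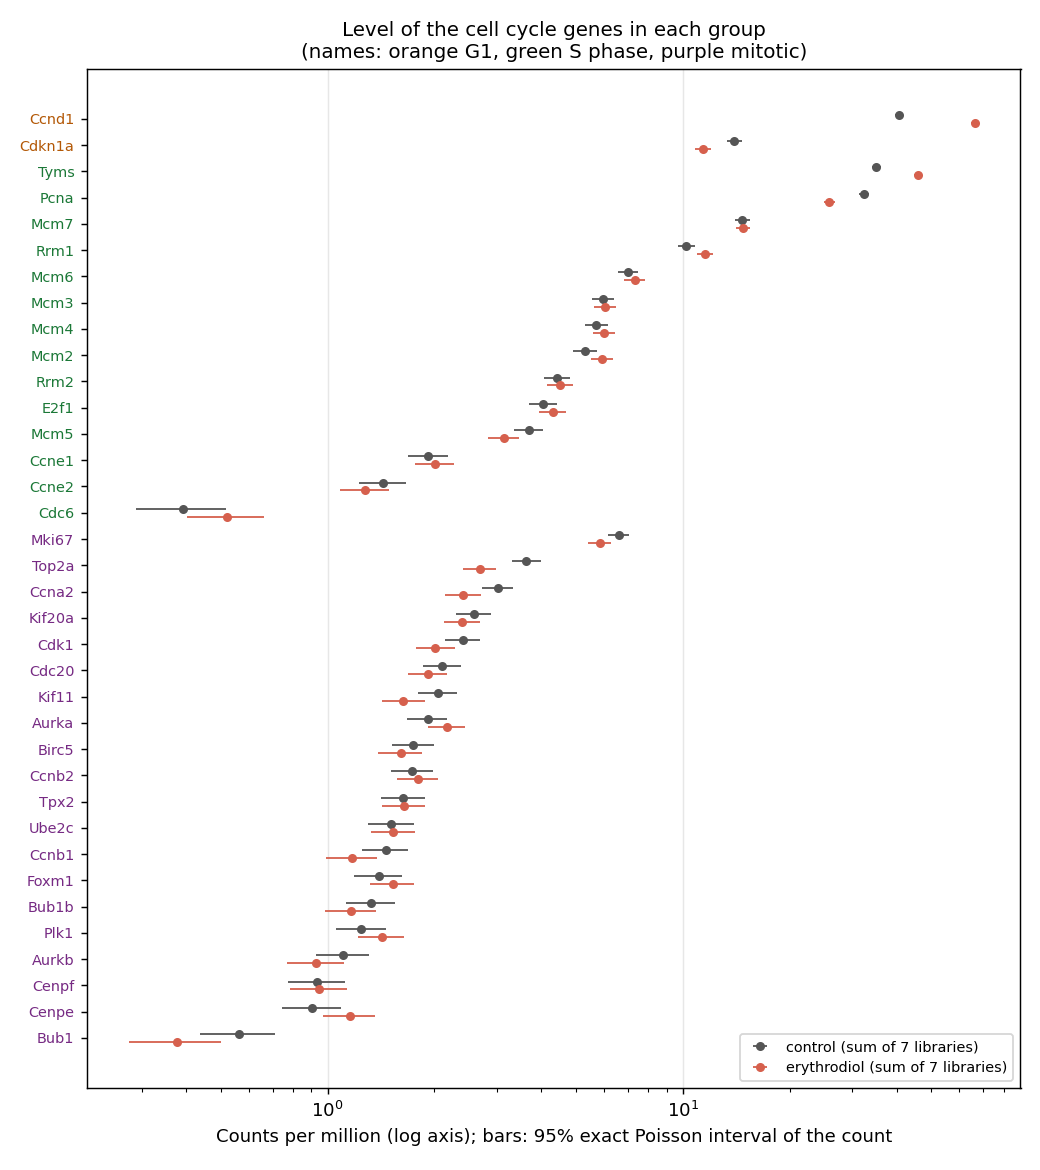
Level of each member in CPM on a log axis, control in grey and erythrodiol in red, each the sum of 7 libraries, with bars for the 95% exact Poisson interval of the count. Ccnd1 moves from 40.7 to 66.4 CPM, Pcna from 32.4 to 25.9, and the intervals of most members overlap between the groups.

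With erythrodiol, 1 of the 36 members was called higher (Ccnd1) and none was called lower, beside 4.95% of the 15502 genes called higher and 5.47% called lower. The members' counts of calls are near or below these shares and are no result about the members. The counting interval lay above 1 for 4 members (Ccnd1, Mcm2, Rrm1 and Tyms), beside 47.6% of all genes. It lay below 1 for 9 members (Bub1, Ccna2, Cdk1, Cdkn1a, Kif11, Mcm5, Mki67, Pcna and Top2a), beside 15.9% of all genes. The 3 other scalings lower every ratio, so the intervals of those 9 had to stay below 1. Of the 4 above 1, those of Ccnd1 and Tyms stayed above in all 4 scalings. The intervals of Mcm2 and Rrm1 included 1 in the other 3. The median log2 ratio was 0.01 over the members and 0.15 over all genes, and 29 of the 36 members lay below the median of genes with at least 100 counts. Under the 3 other scalings the median of the members was -0.15, -0.13 and -0.09, in the order TMM, median of ratios and totals without the 50 most abundant genes. In bulk liver, fewer cells of a type and less RNA per cell cannot be told apart.

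**Figure D3:**
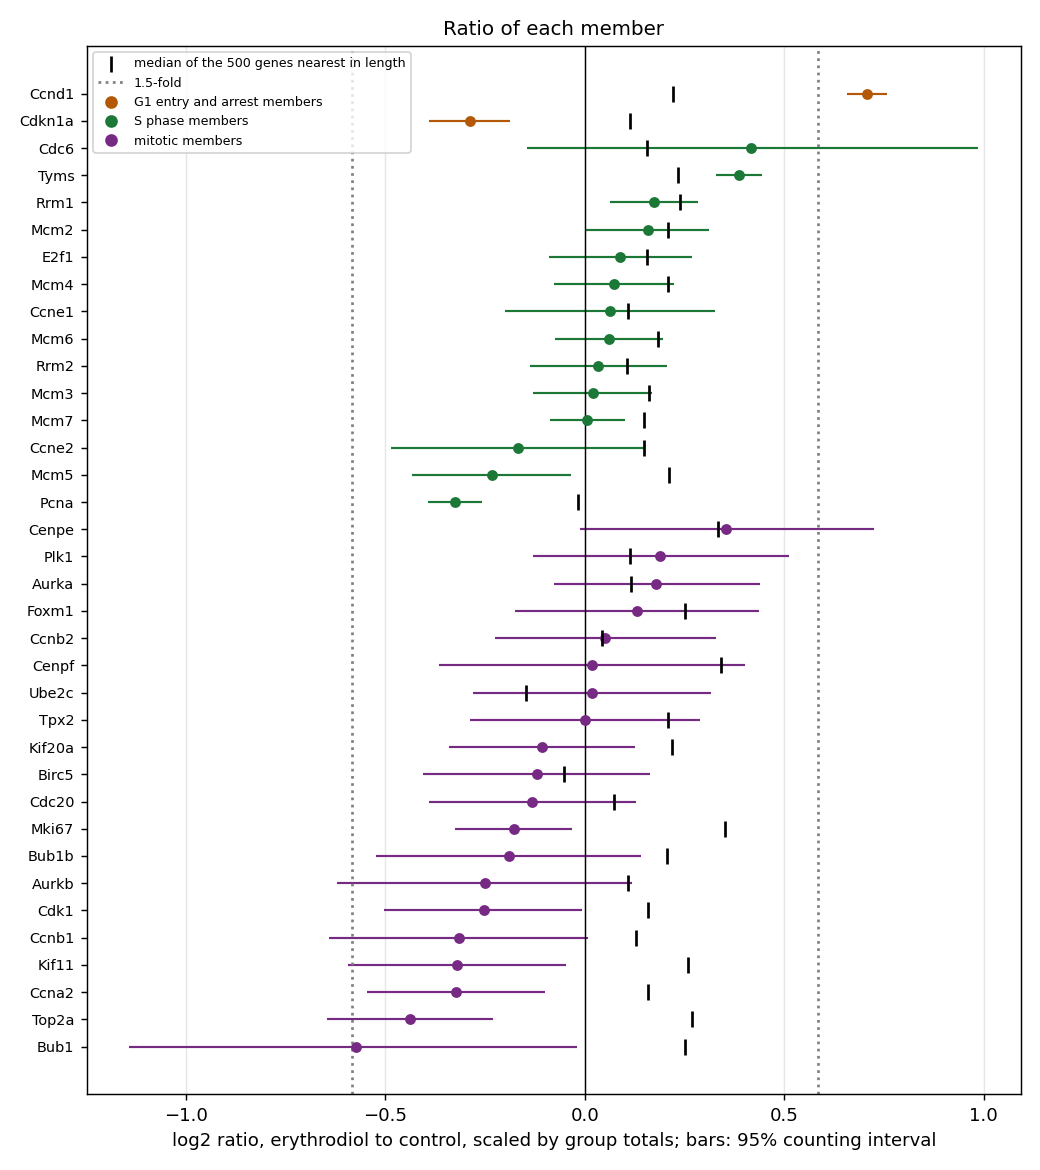
Log2 ratio of erythrodiol to control for each member with its 95% counting interval, coloured by class, with a black tick at the median of the 500 genes nearest in transcript length. Ccnd1 lies beyond the dotted line of 1.5-fold, Bub1 lies just inside it on the other side, and 28 of the 36 points lie below their tick.

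The genes of G1 entry and arrest differed in opposite directions. Ccnd1, the cyclin D1 that opens G1, is on chromosome 7 of GRCm38 from 144929931 to 144939831, and had 4996.7 control counts and 8275.34 with erythrodiol. This is 40.7 against 66.4 CPM, a ratio of 1.63 (counting interval 1.58 to 1.69). The call depended on the scaling, since the ratio was 1.46 with TMM, 1.48 with the median of ratios and 1.52 without the 50 most abundant genes. The largest erythrodiol library would have to hold 5.32-fold the level of the others to give this ratio alone. Ccnd1 overlaps the gene LTO1 and its counts are not whole, as happens where the counting divides reads among genes. Cdkn1a encodes p21, the inhibitor of cyclin-dependent kinases that p53 induces, and lies on chromosome 17 from 29090979 to 29100722. It had 1716 control counts and 1425 with erythrodiol, or 13.96 and 11.4 CPM, a ratio of 0.818 (0.762 to 0.879). It was lower with total counts, which the other scalings could only lower further, and was not called.

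Among the S phase genes, Tyms and Pcna had the most counts and differed in opposite directions in all 4 scalings. Tyms, the thymidylate synthase that makes dTMP, is on chromosome 5 from 30038546 to 30073645. It had 4310.93 control counts and 5714.06 with erythrodiol, or 35.1 and 45.8 CPM, a ratio of 1.31 (1.26 to 1.36). Its counts are not whole and 2 transcripts added by the authors' assembly were assigned to it. Pcna, the sliding clamp of the polymerases, is on chromosome 2 from 132249286 to 132253180, and had 3984 and 3227 counts, or 32.4 and 25.9 CPM. Its ratio of 0.798 (0.762 to 0.836) corresponds to the largest control library at 2.46-fold. Tyms made up 26.5% of the S phase sum in the control and 32.9% with erythrodiol, and Pcna 24.5% and 18.6%.

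The helicase genes other than Mcm5 had ratios between 1.004 and 1.12. Mcm2 had a ratio of 1.12 (1.003 to 1.24, from 653 to 739 counts), Mcm3 of 1.01 (733 to 754 counts), Mcm4 of 1.05 (701 to 748), Mcm6 of 1.04 (862 to 912) and Mcm7 of 1.004 (1809 to 1843). Mcm5 was the exception, with 453 control counts and 391 with erythrodiol, a ratio of 0.851 (0.741 to 0.976). The subunits work as a ring in equal numbers, and the 6 genes together had a ratio of 1.02 (0.981 to 1.06). Cdc6, which loads the helicase, had 48 and 65 counts, and its ratio of 1.33 had an interval of 0.905 to 1.98. The ribonucleotide reductase genes were at 1.13 (1.05 to 1.22) for the large subunit Rrm1, with 1257 and 1439 counts, and 1.02 (0.908 to 1.15) for Rrm2, the subunit whose amount follows S phase. The E cyclins, which drive entry into S phase, had ratios of 1.04 (0.870 to 1.253) for Ccne1 and 0.890 (0.714 to 1.11) for Ccne2. E2f1, the factor that drives this class, had 497.52 and 537 counts and a ratio of 1.06 (0.940 to 1.204).

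Summed over the class, the S phase genes had 16263.44 control counts and 17342.01 with erythrodiol, or 132 and 139 CPM, a ratio of 1.05 (1.03 to 1.07) that turned to 0.943, 0.9501 and 0.982 with TMM, the median of ratios and totals without the 50 most abundant genes, and to 0.959 without Tyms. Without both Tyms and Pcna, a set chosen after the data were seen, it was 1.04 (1.01 to 1.07). Of the 14 genes, 11 had a ratio above 1 and 3 below, beside 10558 and 4944 of the 15502 genes. In all 4 scalings, 4 of the 14 were higher and 3 were lower, and 7 changed side, so that no direction of the class can be read from these sums.

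Of the 20 mitotic genes, 12 had a ratio below 1 with total counts, beside 4944 of the 15502 genes. The other scalings lower every ratio, so these 12 could not change side. Of the rest, 3 were higher in all 4 scalings and 5 changed side. The sum of the class was 4894.4 control counts and 4525.92 with erythrodiol, or 39.8 and 36.3 CPM, a ratio of 0.911 (0.875 to 0.949). The ratio was 0.818, 0.824 and 0.851 in the other scalings in the order given above. The largest control library at 1.56-fold the others would give the sum's difference. The median log2 ratio of the class was -0.13. The interval lay below 1 for 6 of the 20 genes, beside 15.9% of all genes, and above 1 for 0, beside 47.6%.

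Of the genes that act on mitotic chromosomes, Top2a and Mki67 had intervals below 1, and those of Birc5 and Aurkb included 1. Top2a, the topoisomerase that untangles sister chromatids, is on chromosome 11 from 98992947 to 99024199 and had 446 control counts and 334 with erythrodiol. Its ratio was 0.738 (0.639 to 0.852), which the largest control library at 3.05-fold would give. Mki67, the proliferation marker that coats mitotic chromosomes, is on chromosome 7 from 135689784 to 135716450 and had 811 and 727 counts, a ratio of 0.884 (0.798 to 0.978). Birc5, the survivin of the passenger complex, had 214.38 and 200.09 counts and a ratio of 0.920 (0.755 to 1.12). Aurkb, the kinase of that complex, had 136 and 116 counts and a ratio of 0.841 (0.650 to 1.08).

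Of the kinase and cyclins that start mitosis, Cdk1 and Ccna2 had intervals below 1 and the B cyclins did not. Cdk1, on chromosome 10 from 69335146 to 69352912, had 295 control counts and 251 with erythrodiol, a ratio of 0.839 (0.706 to 0.996). Ccna2, on chromosome 3 from 36564865 to 36573038, had 370.44 and 300.53 counts, a ratio of 0.800 (0.684 to 0.934), and it overlaps Exosc9. Ccnb1 had 179 and 146 counts, and its ratio of 0.804 had an interval of 0.642 to 1.006. Ccnb2, the other B cyclin, was at 213 and 224 counts, a ratio of 1.04 (0.855 to 1.26). Foxm1, the factor that drives these genes, had 171 and 190 counts and a ratio of 1.10 (0.886 to 1.35). Plk1 and Aurka, kinases of centrosome and spindle, had ratios of 1.14 (0.913 to 1.43) and 1.13 (0.947 to 1.36), with 153 and 177 counts for Plk1 and 235 and 270 for Aurka.

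Among the checkpoint genes, Bub1 had the lowest ratio of the 36 members. This spindle checkpoint kinase, on chromosome 2 from 127800197 to 127831859, had 69 control counts and 47 with erythrodiol, a ratio of 0.671 (0.453 to 0.987). It was called lower in each of the 3 other scalings, which lower every ratio. Bub1b, its partner in the checkpoint, had 163 and 145 counts and a ratio of 0.877 (0.696 to 1.10). Cdc20 and Ube2c, activator and enzyme of the anaphase-promoting complex, had ratios of 0.913 (0.762 to 1.09) and 1.01 (0.823 to 1.24).

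The spindle motors and kinetochore genes did not share a direction. Kif11, the motor that separates the poles, is on chromosome 19 from 37376382 to 37421863 and had 250.96 and 203.96 counts, a ratio of 0.801 (0.663 to 0.967). Kif20a, a motor of cytokinesis, was at 0.928 (0.790 to 1.09), and Tpx2, which nucleates spindle microtubules, at 1.000 (0.819 to 1.22) with 201 and 204 counts. Cenpe, a kinetochore motor, had 111 and 144 counts and the highest ratio of the class, 1.28 (0.991 to 1.65). Cenpf had 114.89 and 117.98 counts and a ratio of 1.01 (0.776 to 1.32).

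The S phase sum stood above the mitotic sum in its change by 0.21 on the log2 scale (counting interval 0.14 to 0.27), a contrast that does not depend on how the groups are scaled. Without Tyms and Mki67, the members of highest count in each class, it was 0.06 (-0.01 to 0.14), a value that leaves out the high Tyms and keeps the low Pcna. Sets chosen after the data were seen gave a contrast of 0.19 (0.12 to 0.26) without both Pcna and Tyms. They gave 0.16 (0.08 to 0.24) with the MCM genes alone against the mitotic sum. The difference between the medians of the log2 ratios, in which each gene counts once, was 0.19. Between the pools, the spread of this contrast is unknown.

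The ratios of all genes moved with the length of the transcript, and the members were therefore set beside genes of like length. Over genes with at least 100 counts, the median log2 ratio was -0.27 below 1000 bases, 0.04 from 1000 to 2000, 0.14 from 2000 to 3000, 0.21 from 3000 to 4000, 0.26 from 4000 to 6000 and 0.33 above that. Against the 500 genes nearest in length, the S phase members had a median difference of -0.10 with 12 of 14 below, and the mitotic members one of -0.33 with 15 of 20 below. Against genes near in count as well as in length, the mitotic difference was -0.20 and the S phase difference -0.07. Bub1 differed from its like-length genes by -0.83, Top2a by -0.71, Kif11 by -0.58 and Mki67 by -0.53. With genes near in count as well, these differences were -0.68, -0.58, -0.41 and -0.45. Ccnd1 was above its like-length genes by 0.48, Cdc6 by 0.26 and Tyms by 0.15, and by 0.40, 0.34 and 0.09 with genes near in count as well.

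**Figure D4:**
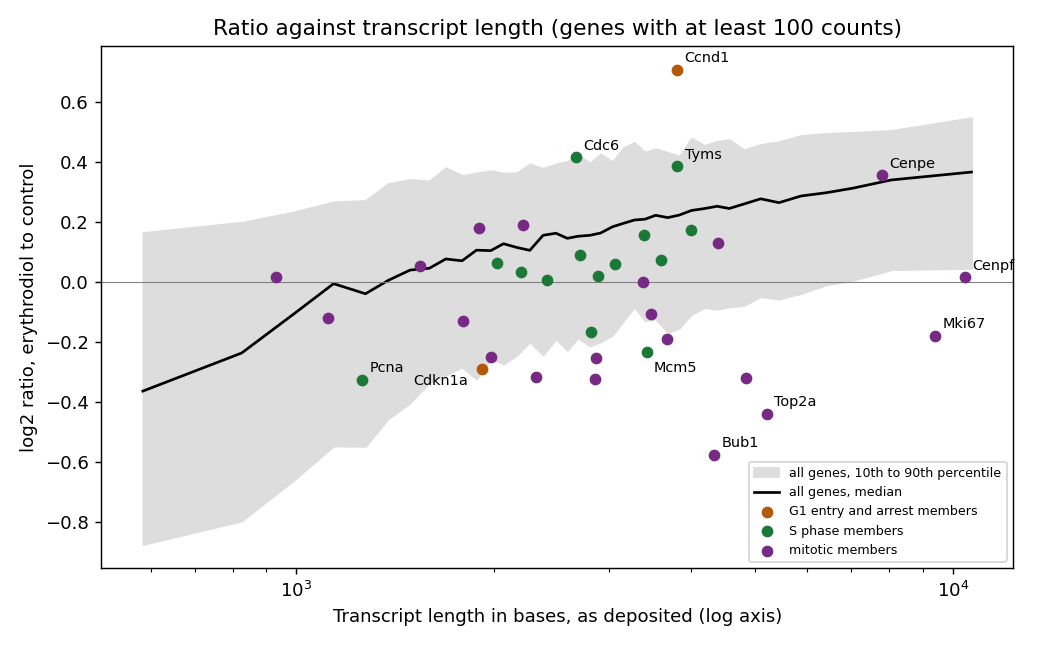
Log2 ratio of erythrodiol to control against transcript length in bases on a log axis, with the median (line) and the 10th to 90th percentile (grey) of all genes with at least 100 counts and the members as points coloured by class. Top2a, Bub1 and Mki67 are among the points below the grey band, Ccnd1 lies above it, and most S phase points lie between 0 and the line.

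Genes of the same machinery outside the 36 members are given by list, beside the shares of all genes above (4.95% called higher, 5.47% called lower, intervals above 1 for 47.6% and below 1 for 15.9%). Of 46 further replication genes, 0 were called higher and 4 lower (Gins1, Rpa3, Gmnn and Uhrf1, and also Rfc4 in each of the 3 other scalings), with intervals above 1 for 10 and below 1 for 12, a median log2 ratio of -0.04 and a summed ratio of 1.01. The highest log2 ratios were those of Brca1 (0.43), Pola2 (0.36) and Pole (0.35), of repair and the polymerases. The lowest were those of Gins1 (-0.90), a part of the active helicase, Rpa3 (-0.82), the small subunit of the single-strand binding protein, and Gmnn (-0.70), the inhibitor of origin licensing. Gins1 had 460 control counts and 250 with erythrodiol, and Gmnn 913 and 570.

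Of 50 further mitotic genes, 2 were called higher (Cdc25c from 12 to 26 counts and Troap from 28 to 48, both named after their values were seen) and 1 lower (Cep55), with intervals above 1 for 4 and below 1 for 9. With TMM, 5 were called lower (Cep55, Cdkn3, Ndc80, Kif14 and Anln), when 1379 of all 15502 genes were, and 4 in each of the other 2 scalings (the same without Anln). Their median log2 ratio was -0.04 and their summed ratio 0.978 (0.959 to 0.998), with a median difference of -0.24 from genes of like length. Kif20b (0.32), Ect2 (0.24) and Hmmr (0.21) were the highest with at least 100 counts, and Cep55 (-0.63), Cdkn3 (-0.57) and Ndc80 (-0.56) the lowest.

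Of 30 further genes of G1, pocket proteins and inhibitors, 2 were called higher and 0 lower, with intervals above 1 for 17 and below 1 for 2, a median log2 ratio of 0.20, near the 0.15 of all genes, and a summed ratio of 1.21 (1.19 to 1.22). E2f8, a repressor of the E2F family, had 848 and 1494 counts (log2 0.80), and Myc, the growth factor-induced transcription factor, 937 and 1433 (log2 0.59), and these were the 2 called. Myc lay close to the limit, and the shifts of the 3 other scalings put it short of a call. Wee1, the kinase that restrains Cdk1, was at 0.41. Cdkn1c, the inhibitor p57, was the lowest at -0.57, with 221 and 151 counts, followed by E2f7 (-0.30) and Cdkn2b (-0.22). Of 15 further targets of p53, 0 were called higher and 1 lower (Phlda3), and their median log2 ratio was -0.03. Mdm2 (0.42), Gdf15 (0.42) and Trp53inp1 (0.26) were the highest, and Phlda3 (-0.59), Eda2r (-0.36) and Bax (-0.27) the lowest.

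**Figure D5:**
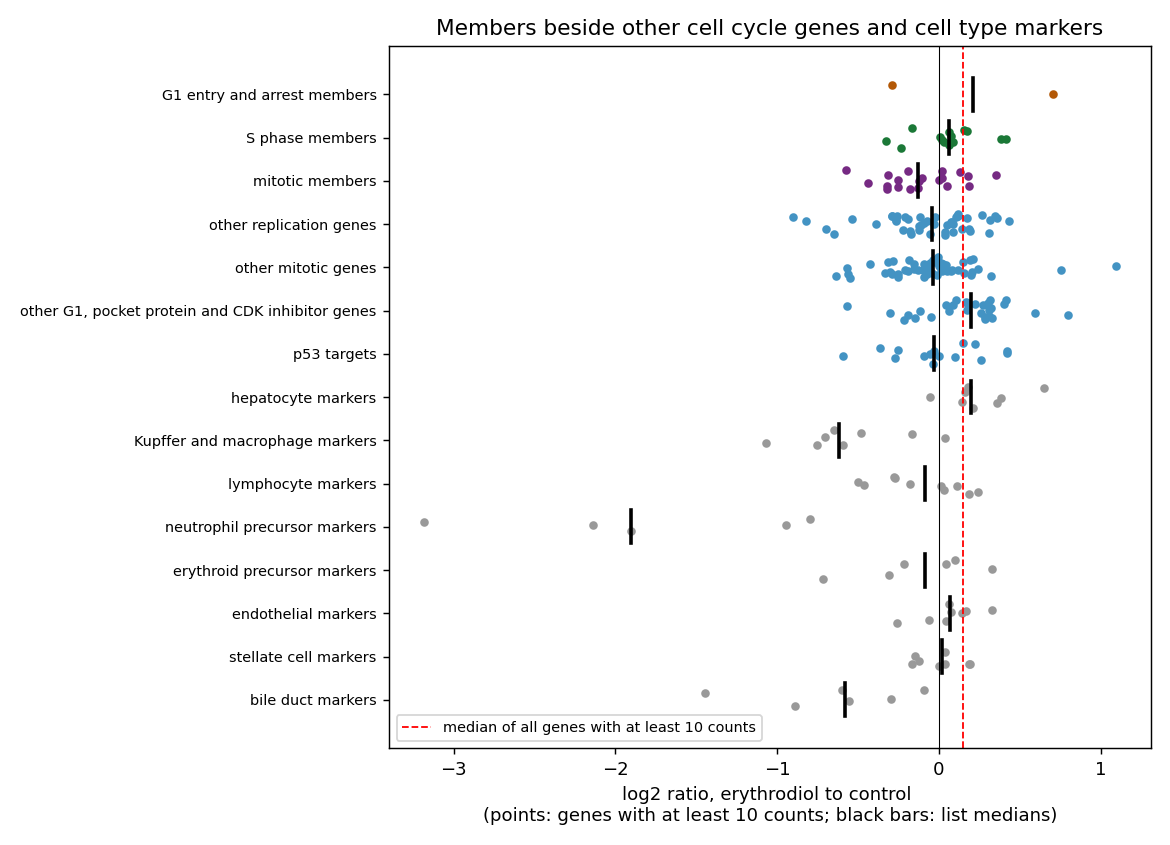
Log2 ratio of each gene with at least 10 counts (points) and the median of each list (black bars), for the members by class, other cell cycle genes (blue) and cell type markers (grey), with the median of all genes as a dashed red line at 0.15. The mitotic bar is at -0.13, while the bars of macrophage and neutrophil precursor markers lie at -0.62 and -1.90.

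The lists of cell type markers did not share a direction. The 8 Kupffer cell and macrophage markers (Adgre1, Clec4f, Vsig4, Timd4, Cd68, Csf1r, Cd5l and Marco) summed to 1004 CPM in the control and 661 CPM with erythrodiol, a ratio of 0.658, with 5 called lower (Marco, Adgre1, Cd5l, Clec4f and Vsig4) and 0 higher. Neutrophil precursor markers were at low levels, 4.13 and 0.786 CPM summed, and 5 of the 5 with at least 10 counts were called lower (Mpo, Elane, Prtn3, Ngp and Ltf). Prtn3 alone had 367 and 41 counts. The 6 bile duct markers summed to 117 and 79.3 CPM, with 3 called lower (Cldn4, Krt19 and Spp1), and the erythroid precursor markers to 962 and 719 CPM, with 1 of 6 called lower (Hbb-bs). The erythroid sum was carried by the globins Hbb-bs and Hba-a1, and 3 of the 6 genes (Alas2, Klf1 and Epor) had ratios above 1. The lymphocyte markers summed to 36.6 and 31.5 CPM with 0 of 10 called. Ptprc alone made up 27.2 and 22.6 CPM of these sums, and 5 of the 10 genes had ratios above 1. With TMM and the median of ratios 2 of the 10 (Cd3g and Ms4a1) were called lower, when 1379 and 1318 of all 15502 genes were. Without the 50 most abundant genes 1 was (Ms4a1), when 1158 of all genes were. The endothelial markers had a ratio of 1.05, the stellate cell markers one of 0.959 and the hepatocyte markers one of 1.00. Alb made up most of the hepatocyte sum, with 80551 of 100608 CPM in the control, and had a ratio of 0.962. The intervals of the other 7 markers lay above 1, beside 47.6% of all genes, and the list's median log2 ratio was 0.20. Of these, Pck1 (ratio 1.57) was called higher, though not in the 3 other scalings. No marker of these lists was at 0 in both groups, and Ms4a3 of the neutrophil list was not in the table. The part of these cell types in the values of the mitotic and S phase genes was not tested.

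Other features were shared by some of the members. Of the 36 genes, 27 had whole counts in both groups, and 9 had fractional counts, which arise where reads are divided among genes (Ccne2, E2f1, Tyms, Ccna2, Birc5, Kif11, Kif20a, Cenpf and Ccnd1). The span of 10 members overlapped that of another gene, and the library protocol gives no step that marks the strand, so that reads of the overlap cannot be told apart. The authors' assembly had added transcripts to 5 members, beside 28.5% of all genes. In the deposited annotation, 16 members carried the term cell division, as did 307 genes of the table, and 9 carried DNA replication initiation, as did 22 genes.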

How the data were processed

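Members, gene lists and promoter elements were chosen with earlier results of these data known. Liver polyA RNA was sequenced in paired-end mode on a BGISEQ instrument. Per the submitters' processing notes, HISAT, StringTie, Cufflinks, GATK, Bowtie2 and RSEM were used, with versions not given in the sources used here. The authors deposited 1 expected count per gene and group, not normalized and equal to the sum over libraries, and per library the counts of clean reads and the percent mapped to genes. The authors also deposited a log2 ratio, p-values and q-values of a comparison of the groups under the name DEGseq, which were not used. No column of per-sample values was left unused.

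Groups came from the sample titles. Expected counts were kept as deposited, and ratios were scaled by group totals with exact 95% binomial-based intervals. A gene needed 10 counts in both groups together, a difference from like-length genes 100 counts, and a count was taken as whole within 0.005. Comparisons of genes had no test, since the table used here gives 1 value per group. The genes named were all 36 members and, of each further cell cycle list, the 3 highest and 3 lowest with at least 100 counts. Genes of those lists that were called in any scaling were named as well, and so after their values were seen. Of the marker lists the sums were given, and 1 marker is not reported here. Promoters were searched with exact letters. Depth was 34856340 to 55244294 clean reads per library, and reads without molecular identifiers are not independent molecules. Alternatives were other scalings (TMM from edgeR 4.0.16 in R 4.3.3), other minimums, folds and pseudocounts, members left out and other length classes. The ratio computation was tested on simulated data for the comparison of erythrodiol with control over 15502 genes, where 100% of 200 changed genes were recovered and 95.31% of intervals held the true ratio. The simulated counts held counting error only, without spread between pools. Changed genes had a mean of at least 100 counts and differed by more than the fold for a call. The simulation therefore checks the computation and not the calls or intervals of the members. Scripts ran in Python 3.11.15 with scipy 1.17.1, numpy 2.4.6, matplotlib 3.10.9 and pandas 2.3.3.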

Additional observations from a re-analysis of the deposited data

Results flagged for a closer look

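Control replicate 3 had 64.33% of its reads mapped to genes, far from the 74.39% to 81.43% of the other 6 control libraries, as its gap to the nearest library was large against the range of its group. Chance gives such a value in about 1 in 20 groups. This library gave 9.12% of the mapped pairs summed in the control, and its share in any gene's count is unknown.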

How the results depend on the processing

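No paired analysis was possible because the gene values are sums over the libraries of a group, and for the same reason no library could be left out. Of 51 alternatives, 29 left the value within its interval or the count within 1.5 times, 17 moved it and 5 turned its direction. The S phase ratio turned to 0.943 with TMM, 0.9501 with the median of ratios, 0.982 with totals without the 50 most abundant genes, 0.959 without Tyms and 0.955 with members of whole counts alone, and moved to 1.02 with the MCM genes alone. The mitotic ratio was 0.818, 0.824 and 0.851 in the 3 other scalings, which lower every ratio and could not turn its direction. The contrast of S phase with mitotic genes was 0.0645 without the member of highest count in each class. Members called higher were 0 with TMM, 0 with the median of ratios and 4 at a lower limit of 0.32 in log2 ratio (Ccnd1, Tyms, Cenpe and Cdc6). Members called lower were 2 with TMM (Top2a and Bub1), 1 with the median of ratios and 1 without the 50 most abundant genes (Bub1 in both), and 4 at this lower limit (Pcna, Top2a, Ccna2 and Bub1). Of all 15502 genes, 1379, 1318 and 1158 were called lower in these 3 scalings, and 454, 471 and 523 higher. The members' counts are near or below those shares and are no result about the members. At the lower limit the shares of all genes were not computed. Intervals above 1 were 2 in each of the 3 other scalings, and intervals below 1 were 16 with TMM and 15 with the median of ratios. The shares of all genes with such intervals were not computed in these scalings. The counts can therefore not be set beside the 47.6% and 15.9% of the main scaling. These scalings differ from the main one by a constant shift of all genes, and over all genes the share of calls that were higher went from 47.5% to 24.8%, 26.3% and 31.1%. The sums of whole counts alone, of the MCM genes alone and without Pcna and Tyms, and the median relative to genes of like length, were chosen after seeing the data. So were the calls of the other cell cycle lists in each scaling. Depth limits the low members, since at 48 and 65 counts Cdc6 has an interval of 0.905 to 1.98.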

Other observations

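Lists of the deposited annotation, with the members left out and chosen after values were seen, gave the wider setting. Of 284 other genes with the term cell division, 6 were called higher and 4 lower, with a median log2 ratio of 0.15. Of 85 with DNA replication, 2 were called higher and 3 lower, with a median of 0.18. Of 60 with chromosome segregation, 1 was called higher and 1 lower, with a median of 0.13. Over all genes, 4.95% were called higher and 5.47% lower. The counts of calls in these lists are below those shares and are no result about the lists.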
